A study of Mus musculus with 6 samples.

Results

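Translation initiation and elongation factors are the proteins that start and extend the peptide chain on the ribosome. All genes whose symbol starts with Eif or Eef followed by a digit were taken, apart from the kinase genes starting with Eif2ak, which gave 57 of the 19938 genes measured. Each gene was read from the probe set that names only that gene and has the highest mean over the 6 arrays. The rule uses symbols and mean levels over all arrays. Eif3j1, Eif3j2 and Eif4ebp3 lay only on probe sets shared with other genes and are not among the 57.

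The cells were CD4 T cells carrying the BDC2.5 T cell receptor, which recognises an antigen of pancreatic beta cells, and they had been transferred into mice of the NOD strain, a model of autoimmune diabetes. All 3 groups shared the strain, the sex given (female), the age of 7 weeks, the transferred cells and the tissue, the spleen. One group was injected with PBS. The second received 100 ng of an antibody to the dendritic cell receptor DEC205 that carries the BDC antigen, and the third 100 ng of an antibody to the receptor DCIR2, found on another kind of dendritic cell, carrying the same antigen. After 14 h the Thy1.1+CD4+ cells were sorted, and Affymetrix arrays were hybridised with RNA amplified from 5 ng. Each group had 2 arrays, described as biological duplicates with no statement of how many mice each represents, so p-values measure the spread between these samples. No group received an antibody without the antigen, so what the antigen does and what the antibody does cannot be told apart.

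Initiation factors bring the initiator tRNA, the small ribosomal subunit and the capped mRNA together and move the subunit to the start codon, and elongation factors then deliver aminoacyl-tRNAs and shift the ribosome along the message. eIF2 carries the initiator tRNA, eIF2B recharges it, eIF3 is the large scaffold on the small subunit, and the eIF4 proteins bind and unwind the 5' end of the mRNA. Resting T cells make little protein, and stimulation through the receptor is known to raise their translation.

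The sort was checked against markers. The mean log2 level of 11 measured T cell genes was 10.26 and 10.39 on the PBS arrays, 10.09 and 10.05 on the DEC205 arrays, and 9.62 and 9.73 on the DCIR2 arrays. Of these 11 genes, 1 rose and 1 fell after anti-DEC205-BDC (5.32% and 3.53% of all genes). After anti-DCIR2-BDC 1 rose and 7 fell (10.1% and 7.82%). The means of the B cell, dendritic cell, macrophage, CD8 T cell, natural killer cell, neutrophil and erythroid lists lay between 4.29 and 6.03 on all arrays. In these lists 1 of 7 natural killer genes and 1 of 9 macrophage genes fell after anti-DEC205-BDC. After anti-DCIR2-BDC 3 of the 7 natural killer genes fell. No other gene of these lists rose or fell. Array medians over all probe sets were 5.43 to 5.56, and the paired arrays of each group correlated at 0.974 to 0.982 over probe sets, a description without independent points. Whether the lower T cell markers bear on the translation genes was not tested. In sorted bulk RNA, fewer cells of a type and less RNA per cell cannot be told apart.

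Of the translation factor genes that passed after antigen delivery, all but 1 rose. Values are log2 expression, a change is the difference of group means on that scale, and a gene passed where limma's Benjamini-Hochberg adjusted p over all 19938 genes was under 0.05. After anti-DEC205-BDC 24 of 57 members passed (42.1%), and all 24 rose, where 8.84% of all genes passed, 5.32% rising and 3.53% falling. After anti-DCIR2-BDC 35 passed (61.4%), 34 rising and 1 falling, where 17.9% of all genes passed, 10.1% rising and 7.82% falling. The median change of the members was 0.51 and 0.79, beside -0.03 and -0.05 over all genes. An unadjusted p under 0.05 was reached by 36 members after anti-DEC205-BDC (20.7% of all genes) and 42 after anti-DCIR2-BDC (28.1%), and the change was above 0 in 44 (45.9%) and 49 (42.5%). At least 2-fold changes that passed numbered 13 (all genes 4.15%) and 24 (all genes 9.22%).

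The shift was visible on each array. Set against the PBS mean of each gene, the median member stood at -0.05 and 0.05 on the PBS arrays, 0.44 and 0.66 on the DEC205 arrays, and 0.72 and 0.92 on the DCIR2 arrays, so the 3 groups did not overlap. Both treated arrays lay above both PBS arrays in 36 members after anti-DEC205-BDC (22.2% of all genes) and in 43 after anti-DCIR2-BDC (23.4%). Both lay below in 6 (26.5%) and 4 (31.9%). Both comparisons use the same PBS arrays. The members were mostly abundant: 35 of 57 were at or above the 90th percentile of mean level over all genes, and only Eef1akmt3 and Eif4a3l1 were below the median gene.

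**Figure D1:**
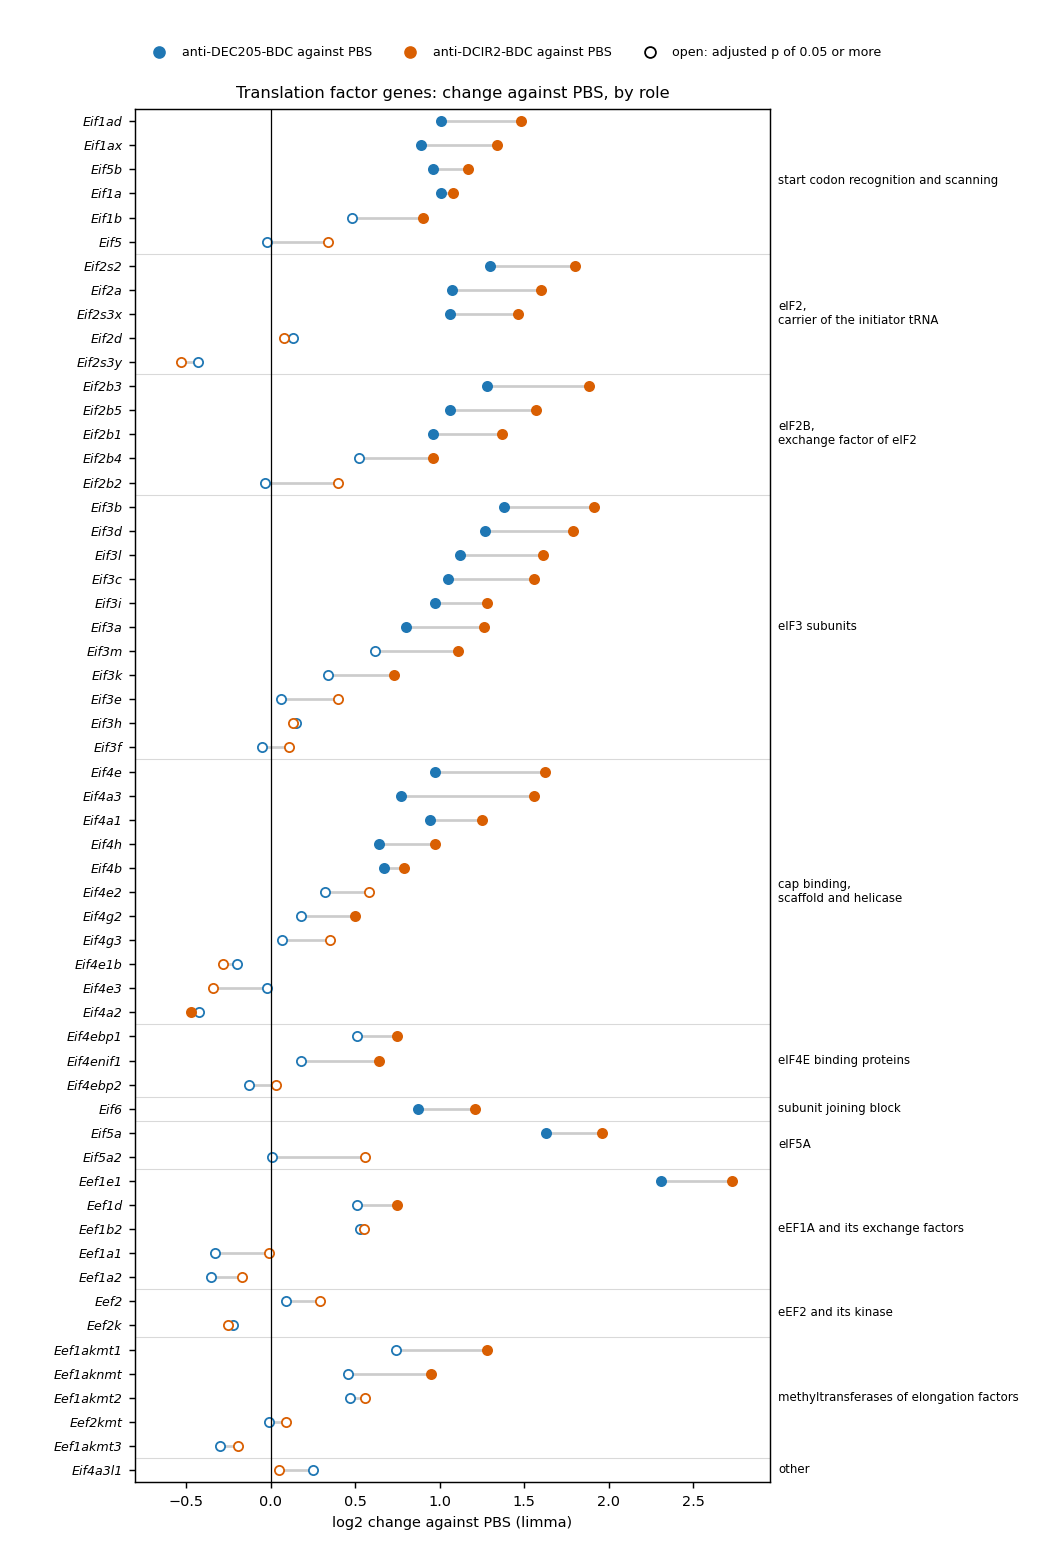
Log2 change against PBS of the 57 genes, grouped by role, with anti-DEC205-BDC in blue and anti-DCIR2-BDC in orange. Filled points passed (limma adjusted p under 0.05) and open points did not, and all 24 genes filled in blue are filled in orange further to the right.

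On the probe sets chosen, the 2 largest rises were in Eef1e1 and Eif5a. Eef1e1, also known as p18, is an accessory protein of the multi-synthetase complex that holds several aminoacyl-tRNA synthetases. Its levels were 6.70 and 7.01 with PBS, 9.11 and 9.22 after anti-DEC205-BDC, and 9.48 and 9.69 after anti-DCIR2-BDC. Both antibody groups stood far above PBS, with rises of 2.31 (4.95-fold, adjusted p = 0.000306) and 2.73 (6.63-fold, adjusted p = 3.93e-05). Between the antibodies the difference was 0.42 and did not pass (adjusted p = 0.491). Eif5a encodes the main form of eIF5A, the protein that carries the modified residue hypusine and relieves ribosome stalling during elongation and termination. It read 9.19 and 9.23 with PBS, 10.76 and 10.91 after anti-DEC205-BDC, and 11.08 and 11.25 after anti-DCIR2-BDC. It rose by 1.63 (3.09-fold, adjusted p = 0.000306) and 1.96 (3.88-fold, adjusted p = 3.93e-05). Another Eif5a probe set showed changes of 0.99 (adjusted p over all probe sets 0.0594) and 1.40 (0.0107). With the mean of its probe sets Eif5a rose by 1.31 and 1.68, less than Eif3b (1.38 and 1.91). Its place in the ranking thus depends on the probe set.

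The promoters are shown because members that moved together can be compared in sequence. RefSeq promoter windows of build GRCm38.p6, 300 bases from 250 before to 50 after the start, matched 44 of the 57 genes in 58 windows. The E-box CACGTG, a palindrome and thus the same on both strands, is a sequence that Myc with Max and related proteins can bind. It occurred in 14 of 58 member windows (24.1%), beside 7.15% of all 32851 windows and 8.24% of 19177 windows of genes on the array. Windows of a gene can overlap and are not independent. The Eif5a windows with the motif at -185 and -74 from their starts hold the same CACGTG, counted in each. The 12 member genes with it were Eef1aknmt, Eef2, Eef2k, Eif1b, Eif3a, Eif3f, Eif3k, Eif4a1, Eif4e, Eif4h, Eif5a and Eif5a2, which is 27.3% of the 44, beside 9.5% of 15614 array genes. Below are the 250 bases before a start of Eif4e at chr3:138527018-138527267 (plus strand), Eif5a at chr11:69921387-69921636 (minus), Eif4a1 at chr11:69672424-69672673 (minus) and Eef2 at chr10:81176381-81176630 (plus), with CACGTG in capitals.
Eif4e: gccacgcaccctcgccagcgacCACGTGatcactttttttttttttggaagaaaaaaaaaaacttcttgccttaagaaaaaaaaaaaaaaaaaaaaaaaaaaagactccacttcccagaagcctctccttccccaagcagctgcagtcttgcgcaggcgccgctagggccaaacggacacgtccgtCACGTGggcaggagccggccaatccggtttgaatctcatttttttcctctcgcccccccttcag
Eif5a: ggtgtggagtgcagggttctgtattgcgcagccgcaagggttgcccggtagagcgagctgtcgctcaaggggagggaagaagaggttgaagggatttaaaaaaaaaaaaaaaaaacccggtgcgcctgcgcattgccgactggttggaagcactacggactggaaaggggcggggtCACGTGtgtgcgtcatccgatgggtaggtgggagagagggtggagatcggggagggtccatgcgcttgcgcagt
Eif4a1: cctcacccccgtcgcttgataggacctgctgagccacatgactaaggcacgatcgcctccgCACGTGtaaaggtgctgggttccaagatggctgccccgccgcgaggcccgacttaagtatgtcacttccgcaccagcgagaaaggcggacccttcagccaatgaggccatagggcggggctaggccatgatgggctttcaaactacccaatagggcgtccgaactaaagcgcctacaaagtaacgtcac
Eef2: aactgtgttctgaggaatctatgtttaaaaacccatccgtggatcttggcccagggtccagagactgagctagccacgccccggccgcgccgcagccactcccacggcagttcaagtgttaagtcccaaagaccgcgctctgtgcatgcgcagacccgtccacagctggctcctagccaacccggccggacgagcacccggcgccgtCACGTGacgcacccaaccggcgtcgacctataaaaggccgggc
The first 3 genes rose in both comparisons and Eef2 passed in neither, so the hexamer stood before genes of either kind. Of the 12 genes with it 8 rose after anti-DCIR2-BDC, with a median change of 0.92, and of the 32 without it 18 rose, with a median of 0.88.

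A pyrimidine run at the transcription start marks messages whose translation follows the mTOR pathway. A run of at least 5 C or T bases from the annotated start was found in 3 members and 5.17% of member windows, beside 4.44% of all windows and 3.92% of those of array genes. The count depends on the annotated start being exact to the base, so a gene outside it is not shown to lack such a run. The runs of Eef2, Eef1b2 and Eif4b were 0, 0 and 1 bases. Whether the annotated starts are those used in these cells was not tested, so the runs are not shown to be of the mTOR-linked kind. That of Eef1a1 begins with T. The 3 annotated starts are printed with the run in capitals, Eef1a1 at chr9:78481701-78481724 (minus), Eif2s3x at chrX:94212628-94212651 (minus) and Eif3f at chr7:108934415-108934438 (plus).
Eef1a1: TTCCCgagggtgggggagaacggt
Eif2s3x: CTTTTCTCTCCgagcaagatggct
Eif3f: CTCTCTTTCTCggcaagatggctt
Of these genes Eif2s3x rose in both comparisons, and Eef1a1 and Eif3f passed in neither.

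Among factors of scanning and start codon recognition, 4 of 6 rose after anti-DEC205-BDC and 5 after anti-DCIR2-BDC. eIF1A, which opens the small subunit for scanning, has close copies in Eif1a and Eif1ax, whose probe sets may share signal. Eif1ax read 8.56 and 8.51 with PBS, 9.31 and 9.53 after anti-DEC205-BDC, and 9.86 and 9.90 after anti-DCIR2-BDC, with no overlap, and rose by 0.89 (adjusted p = 0.00784) and 1.34 (adjusted p = 0.000303). Eif1a read 6.96 and 7.18, 8.19 and 7.98, and 8.07 and 8.24 in the same order, rising by 1.01 (adjusted p = 0.0101) and 1.08 (adjusted p = 0.00302), and its antibody groups overlapped. Eif5b encodes the GTPase that joins the large subunit, and rose by 0.96 (adjusted p = 0.0119) and 1.17 (adjusted p = 0.00178). Eif1ad, named for its eIF1A-like domain, read 6.38 and 7.27 with PBS, 7.65 and 8.02 after anti-DEC205-BDC, and 8.26 and 8.36 after anti-DCIR2-BDC. It rose by 1.01 (adjusted p = 0.0497) and 1.48 (adjusted p = 0.00375), with a wide gap between its PBS arrays. Eif1b, a paralogue of the start codon selection factor eIF1, changed by 0.48 (adjusted p = 0.239) and rose by 0.90 (adjusted p = 0.0147) after anti-DCIR2-BDC. Eif5, the GTPase activator of eIF2, changed by -0.02 (adjusted p = 0.963) and 0.34 (adjusted p = 0.244).

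Several of these calls were lost when 1 array was left out or when every probe set was tested, a setting that changes both the number of tests and the variance fit. After anti-DEC205-BDC the call of Eif1ax was lost without DEC205 array 2 (adjusted p = 0.0656, range over 15 alternatives 0.00485 to 0.0656). The call of Eif1a was lost without PBS array 1 (0.0614), without DEC205 array 1 (0.0621) and with every probe set tested (0.0576, range 0.00613 to 0.0621). For Eif5b it was lost without PBS array 2 (0.0511), without DEC205 array 2 (0.0773) and with every probe set tested (0.0663, range 0.00699 to 0.0773). The call of Eif1ad was lost in 10 alternatives (adjusted p 0.00978 to 0.275), with the call lost without PBS array 1 (change 0.57, adjusted p = 0.275), without either DEC205 array (0.0678 and 0.226) and without either DCIR2 array (0.0973 and 0.0974). After anti-DCIR2-BDC the call of Eif1b was lost without PBS array 2 (0.0935), without DCIR2 array 2 (0.148) and with every probe set tested (0.0637, range 0.00912 to 0.148).

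Of the eIF2 subunit genes measured, Eif2s2 and Eif2s3x rose in both comparisons and the Y-linked Eif2s3y passed in neither. Eif2s1, the gene of the alpha subunit, was not analysed here. Eif2s2, the beta subunit, read 8.81 and 8.40 with PBS, 9.89 and 9.92 after anti-DEC205-BDC, and 10.30 and 10.51 after anti-DCIR2-BDC. Its groups did not overlap, and it rose by 1.30 (adjusted p = 0.00207) and 1.80 (adjusted p = 0.000112). Another Eif2s2 probe set gave smaller changes of 0.82 (adjusted p over all probe sets 0.114) and 1.07 (0.0301). Eif2s3x, the X-linked gene of the gamma subunit, read 8.74 and 8.84, 9.92 and 9.79, and 10.24 and 10.26, and rose by 1.06 (adjusted p = 0.00235) and 1.46 (adjusted p = 0.000133). Its Y-linked copy Eif2s3y read 7.54 and 7.76, 7.22 and 7.23, and 7.07 and 7.19, below PBS on every treated array, with changes of -0.43 (adjusted p = 0.225) and -0.53 (adjusted p = 0.0845). The latter passed with quantile normalization (0.0276) and with no variance trend (0.0376, range 0.0276 to 0.31). The difference Eif2s3x minus Eif2s3y on each array moved by 1.49 and 1.98, but an exact two-sided permutation test of 2 against 2 arrays cannot go below p = 0.333. Eif2s3y stood at the 79.8th percentile of level although the mice are labelled female, and the sex of the T cell donors is not given. Of 2 other Y-linked genes, chosen after their values were seen, Uty read 6.14 and 6.20, 5.45 and 5.39, and 5.01 and 5.07, and Kdm5d 6.82 and 6.89, 6.28 and 6.55, and 6.51 and 6.49. Uty fell in both comparisons, by 0.75 (adjusted p = 0.0111) and 1.13 (adjusted p = 0.000467). Kdm5d changed by -0.44 (adjusted p = 0.199) and -0.35 (adjusted p = 0.249). Like Eif2s3y, both lay below PBS on every treated array, as 26.5% and 31.9% of all genes did in the 2 comparisons. Whether Y-linked genes as a class lay lower was not tested. Xist, transcribed from the inactive X chromosome, read 8.45 and 8.38, 8.16 and 8.20, and 8.18 and 8.33. It also lay below PBS on every treated array, with changes of -0.24 (adjusted p = 0.527) and -0.15 (adjusted p = 0.656).

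Eif2a and Eif2d encode separate proteins that can bring the initiator tRNA without eIF2. Eif2a read 7.25 and 7.86 with PBS, 8.70 and 8.54 after anti-DEC205-BDC, and 9.05 and 9.25 after anti-DCIR2-BDC, and rose by 1.07 (adjusted p = 0.0153) and 1.60 (adjusted p = 0.000721). Its first call was lost without PBS array 1 (0.0923), without DEC205 array 1 (0.0782) and with every probe set tested (0.0933, range 0.00858 to 0.0933). Eif2d changed by 0.13 (95% interval -0.29 to 0.54) and 0.08 (-0.33 to 0.50), and its arrays overlapped between PBS and anti-DCIR2-BDC.

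Of the 5 subunit genes of eIF2B, the exchange factor that reloads eIF2 with GTP, 3 rose after anti-DEC205-BDC and 4 after anti-DCIR2-BDC. Eif2b3, the gamma subunit, read 6.20 and 6.18 with PBS, 7.33 and 7.61 after anti-DEC205-BDC, and 7.88 and 8.26 after anti-DCIR2-BDC. The groups did not overlap, with rises of 1.28 (adjusted p = 0.00442) and 1.88 (adjusted p = 0.00019). Eif2b5, the catalytic epsilon subunit, rose by 1.06 (adjusted p = 0.0219) and 1.57 (adjusted p = 0.00125), and Eif2b1, the alpha subunit, by 0.96 (adjusted p = 0.0168) and 1.37 (adjusted p = 0.00109). Eif2b4 changed by 0.52 (adjusted p = 0.2) and rose by 0.96 (adjusted p = 0.0111) after anti-DCIR2-BDC. Eif2b2, the beta subunit, changed by -0.03 (95% interval -0.52 to 0.45) and 0.40 (-0.08 to 0.88). Here too, calls were lost when 1 array was left out. After anti-DEC205-BDC the call of Eif2b5 was lost without PBS array 1 (0.133), without either DEC205 array (0.0539 and 0.107) and with every probe set tested (0.115, range 0.00906 to 0.133). That of Eif2b1 was lost without PBS array 2 (0.103), without either DEC205 array (0.0572 and 0.0746) and with every probe set tested (0.0905, range 0.0127 to 0.103). After anti-DCIR2-BDC the call of Eif2b4 was lost without PBS array 1 (0.0884), without either DCIR2 array (0.0568 and 0.0929) and with every probe set tested (0.0573, range 0.00593 to 0.0929).

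The eIF3 genes fell into those that rose and a few that stayed near their PBS level. Of 11 subunits 6 rose after anti-DEC205-BDC and 8 after anti-DCIR2-BDC, and the median subunit on each array was 0.72 and 0.89, then 1.25 and 1.25, above the PBS mean. Eif3b, a core scaffold subunit, read 7.71 and 7.81 with PBS, 9.02 and 9.26 after anti-DEC205-BDC, and 9.62 and 9.71 after anti-DCIR2-BDC. Its groups did not overlap, and it rose by 1.38 (adjusted p = 0.00144) and 1.91 (adjusted p = 7.92e-05). Eif3d, whose product can bind the cap of some mRNAs, read 8.65 and 8.87, 9.76 and 10.30, and 10.55 and 10.56, and rose by 1.27 (adjusted p = 0.00306) and 1.79 (adjusted p = 0.000157). Eif3c and Eif3a, the large core subunits, rose by 1.05 (adjusted p = 0.00273) and 0.80 (adjusted p = 0.00872) after anti-DEC205-BDC, and by 1.56 (adjusted p = 0.000105) and 1.26 (adjusted p = 0.00028) after anti-DCIR2-BDC. Eif3i, a small subunit bound to Eif3b, had the smallest adjusted p of the group, with rises of 0.97 (0.000985) and 1.28 (6.69e-05). Eif3l rose by 1.12 (adjusted p = 0.00426) and 1.61 (adjusted p = 0.000206).

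Eif3m and Eif3k passed after anti-DCIR2-BDC and not after anti-DEC205-BDC. Eif3m changed by 0.62 (adjusted p = 0.0571, passing in 4 of 15 alternatives, range 0.0369 to 0.284) and then rose by 1.11 (adjusted p = 0.0015), and Eif3k changed by 0.34 (adjusted p = 0.254) and then rose by 0.73 (adjusted p = 0.00843). The antibodies did not differ past the threshold for either gene. Eif3f and Eif3h encode the MPN-domain subunits, and Eif3e a PCI-domain subunit beside them. Eif3f read 9.91 and 9.69 with PBS, 9.82 and 9.68 after anti-DEC205-BDC, and 9.88 and 9.95 after anti-DCIR2-BDC, overlapping between groups. Its changes were -0.05 (95% interval -0.39 to 0.29) and 0.11 (-0.22 to 0.45). Eif3h changed by 0.15 (-0.17 to 0.47) and 0.13 (-0.19 to 0.45), and Eif3e by 0.06 (-0.28 to 0.39) and 0.40 (0.07 to 0.73, adjusted p = 0.0995). A 2-fold change lies outside all 6 intervals. None of these 3 genes passed in any of the 15 alternatives by limma (smallest adjusted p 0.0675, for Eif3e). The call of Eif3a after anti-DEC205-BDC was lost without PBS array 1 (0.0546), without DEC205 array 2 (0.0701) and with every probe set tested (0.0514, range 0.00581 to 0.0701). That of Eif3l was lost with every probe set tested (0.0501, range 0.00133 to 0.0501). The call of Eif3k was lost without PBS array 2 (0.05) and without DCIR2 array 2 (0.0835, range 0.00619 to 0.0835).

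**Figure D2:**
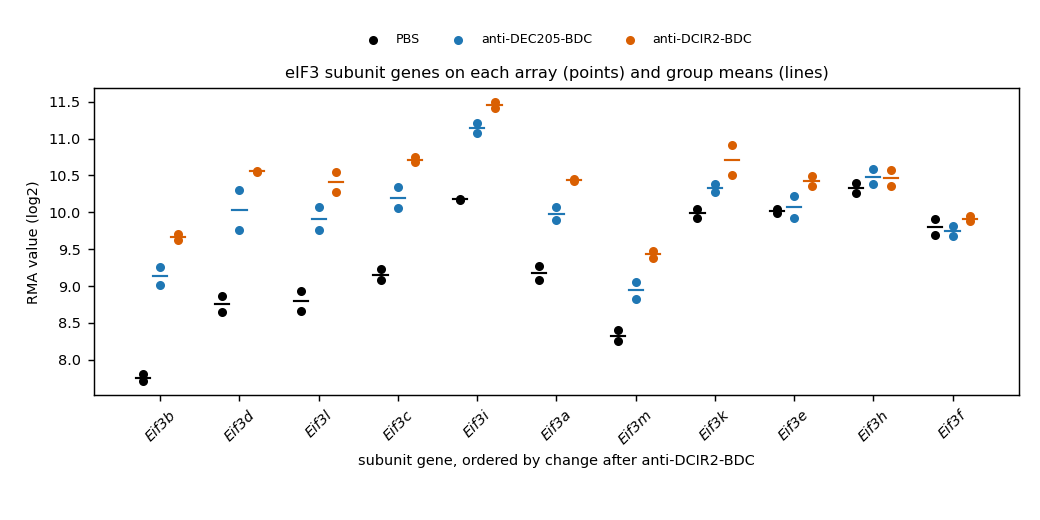
RMA log2 value of the 11 eIF3 subunit genes on each array (points) with group means (lines), ordered by the change after anti-DCIR2-BDC. From Eif3b (rise of 1.91) to Eif3m (1.11) the groups stand apart, while Eif3h and Eif3f overlap. Levels of different genes come from different probe sets and are not compared.

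Among the cap-binding and helicase genes 5 of 11 rose after anti-DEC205-BDC, and after anti-DCIR2-BDC 6 rose and 1 fell. Eif4a1 and Eif4a2 encode the near-identical forms of the eIF4A helicase, which unwinds the mRNA leader. Eif4a1 read 10.73 and 10.85 with PBS, 11.60 and 11.85 after anti-DEC205-BDC, and 11.97 and 12.11 after anti-DCIR2-BDC. It rose by 0.94 (adjusted p = 0.00136) and 1.25 (adjusted p = 8.25e-05), with no overlap between groups. Other Eif4a1 probe sets gave 0.76 and 0.79, then 1.02 and 1.04. Eif4a2 went the other way, reading 10.72 and 10.83, 10.24 and 10.47, and 10.23 and 10.40. It changed by -0.42 (adjusted p = 0.0975, under 0.05 with quantile normalization at 0.0376 and with the replicate block at 0.0432, range 0.0376 to 0.402) after anti-DEC205-BDC and fell by 0.47 (adjusted p = 0.0411) after anti-DCIR2-BDC. This fall was small and was lost in 7 of 15 alternatives, among them without any 1 of the PBS arrays (0.0894 and 0.184) or DCIR2 arrays (0.203 and 0.0733) and with median centring (0.0996, range 0.00484 to 0.203). The difference Eif4a1 minus Eif4a2 moved by 1.36 and 1.72, with replicate arrays within 0.02 of each other, and the exact two-sided permutation test of 2 against 2 arrays gave its smallest p, 0.333. Eif4a3, the helicase of the exon junction complex, read 7.59 and 7.72, 8.37 and 8.49, and 9.24 and 9.19, and rose by 0.77 (adjusted p = 0.0222) and 1.56 (adjusted p = 0.000215). The call of Eif4a3 after anti-DEC205-BDC was lost when any 1 of the 4 arrays compared was left out (0.0528 to 0.123) and with every probe set tested (0.0705, range 0.0114 to 0.123).

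Eif4e, the cap-binding protein, read 8.67 and 8.19 with PBS, 9.34 and 9.45 after anti-DEC205-BDC, and 9.97 and 10.13 after anti-DCIR2-BDC. It rose by 0.97 (adjusted p = 0.0119) and 1.62 (adjusted p = 0.00028). The size depended on the probe set, since 2 other Eif4e probe sets gave 0.56 and 1.03, and -0.14 and 0.46. With the mean of its probe sets the changes were 0.46 (adjusted p = 0.163) and 1.04 (adjusted p = 0.00239). Its first call was also lost without PBS array 2 (0.0635), without DEC205 array 2 (0.0684) and with every probe set tested (0.0763, range 0.00733 to 0.163). The cap-binding relatives did not pass, and no difference between them and Eif4e was shown. Eif4e2, linked to repression of bound mRNAs, read 7.50 and 8.01, 7.88 and 8.26, and 8.24 and 8.43, and changed by 0.32 (adjusted p = 0.507) and 0.58 (adjusted p = 0.121). The latter passed with the replicate number as a block (0.0458, range 0.0458 to 0.53). The difference Eif4e minus Eif4e2 moved by 0.65 and 1.04, each with an exact two-sided permutation p of 0.333, the smallest for 2 against 2 arrays. Eif4e3 read 5.75 and 6.59, 6.36 and 5.95, and 5.69 and 5.98, overlapping throughout, with changes of -0.02 (adjusted p = 0.981) and -0.34 (adjusted p = 0.48). Eif4e1b changed by -0.20 and -0.28 (adjusted p = 0.705 and 0.5), and by -0.01 and -0.02 on another probe set.

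The helicase helpers rose as well. Eif4b read 9.56 and 9.78 with PBS, 10.27 and 10.40 after anti-DEC205-BDC, and 10.39 and 10.52 after anti-DCIR2-BDC, with rises of 0.67 (adjusted p = 0.0186) and 0.79 (adjusted p = 0.00366). Eif4h rose by 0.64 (adjusted p = 0.0473) and 0.97 (adjusted p = 0.00287). After anti-DEC205-BDC Eif4b lost its call without PBS array 1 (0.112), without either DEC205 array (0.0532 and 0.123) and with every probe set tested (0.0758, range 0.00876 to 0.123), and Eif4h in 9 alternatives (0.0206 to 0.282), among them without each of the 6 arrays (0.0539 to 0.282). Among the scaffolds, Eif4g2, also called Dap5, lacks the cap-binding factor's docking site. It changed by 0.18 (adjusted p = 0.48) and rose by 0.50 (adjusted p = 0.0188) after anti-DCIR2-BDC, a call lost without either PBS array (0.0555 and 0.0935), without DCIR2 array 2 (0.117) and with quantile normalization (change 0.31, adjusted p = 0.0952, range 0.014 to 0.117). Eif4g3 changed by 0.07 (adjusted p = 0.902) and 0.35 (adjusted p = 0.317). Eif4g1 and Eif1 were not analysed here.

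**Figure D3:**
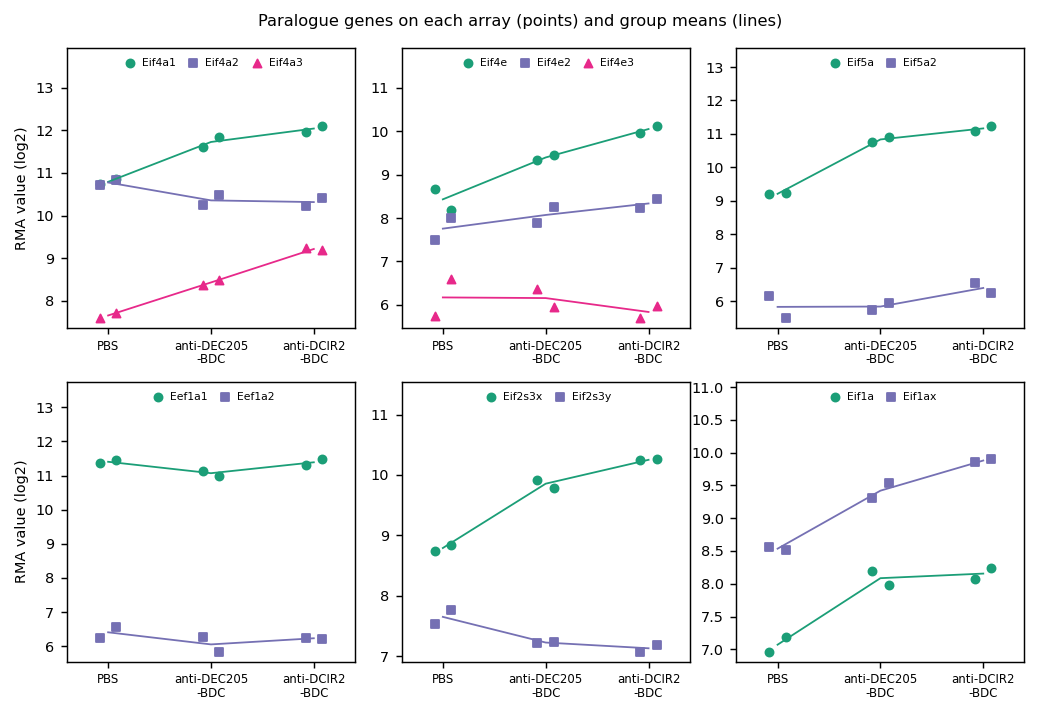
RMA log2 value on each array (points) with lines through group means for 6 sets of related genes. Eif4a1, Eif5a and Eif2s3x rise by 1.25, 1.96 and 1.46 after anti-DCIR2-BDC, while Eif4a2 and Eif2s3y lie lower than with PBS. Each gene is read against its own PBS level.

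The eIF4E-binding proteins restrain eIF4E until they are phosphorylated. Eif4ebp1 read 6.30 and 6.32 with PBS, 6.88 and 6.75 after anti-DEC205-BDC, and 6.98 and 7.15 after anti-DCIR2-BDC, changing by 0.51 (adjusted p = 0.125) and then rising by 0.75 (adjusted p = 0.0142). Eif4ebp2 overlapped between groups, with changes of -0.13 (adjusted p = 0.743) and 0.03 (adjusted p = 0.946). Eif4enif1, which carries eIF4E into the nucleus and to processing bodies, changed by 0.18 (adjusted p = 0.667) and rose by 0.64 (adjusted p = 0.0385) after anti-DCIR2-BDC. Another Eif4enif1 probe set gave -0.21 and 0.22. Both calls were lost when any 1 of the PBS or DCIR2 arrays was left out. The changes then were 0.67 to 0.84 for Eif4ebp1 and 0.53 to 0.74 for Eif4enif1. Eif4enif1 also lost its call with quantile normalization (adjusted p = 0.125), the mean of probe sets (0.151) and every probe set tested (0.0792).

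Eif6, which keeps the large subunit from joining too early, read 7.74 and 7.68 with PBS, 8.49 and 8.68 after anti-DEC205-BDC, and 8.85 and 8.99 after anti-DCIR2-BDC. It rose by 0.87 (adjusted p = 0.0139) and 1.21 (adjusted p = 0.00101). The first call was lost without either PBS array (0.0524 and 0.0583), without DEC205 array 2 (0.0942) and with every probe set tested (0.0594, range 0.00807 to 0.0942). Eif5a2, the paralogue of Eif5a, read 6.17 and 5.49, 5.74 and 5.94, and 6.55 and 6.24. It changed by 0.01 (adjusted p = 0.986) and 0.56 (adjusted p = 0.14), and its PBS and DEC205 arrays overlapped. The latter passed without PBS array 1 (0.0252, range 0.0252 to 0.636).

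The core elongation factors were not called. Eef1a1, which delivers aminoacyl-tRNA to the ribosome, read 11.36 and 11.45 with PBS, 11.14 and 11.00 after anti-DEC205-BDC, and 11.30 and 11.48 after anti-DCIR2-BDC. Its changes were -0.33 (95% interval -0.58 to -0.08, adjusted p = 0.109) and -0.01 (-0.26 to 0.24, adjusted p = 0.969), so a 2-fold change lies outside both intervals. Eef2, the translocase, read 11.44 and 11.50, 11.44 and 11.69, and 11.77 and 11.75, with changes of 0.09 (-0.14 to 0.33) and 0.29 (0.05 to 0.53, adjusted p = 0.0954). Eef2 passed after anti-DCIR2-BDC in 1 of 15 alternatives (median centring, 0.0429, range 0.0429 to 0.301). Eef2k, the kinase that inactivates eEF2, changed by -0.22 (adjusted p = 0.537) and -0.25 (adjusted p = 0.4). Another Eef2k probe set gave -0.03 and -0.001. Eef1a2, the form of muscle and nerve, changed by -0.35 (adjusted p = 0.379) and -0.17 (adjusted p = 0.661).

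Exchange factors of eEF1A showed smaller differences than Eef1e1. Eef1d read 8.68 and 8.85 with PBS, 9.11 and 9.43 after anti-DEC205-BDC, and 9.54 and 9.49 after anti-DCIR2-BDC, changing by 0.51 (adjusted p = 0.118) and then rising by 0.75 (adjusted p = 0.0131). That call was lost without PBS array 1 (0.0763) and without either DCIR2 array (0.0837 and 0.071, range 0.00825 to 0.0837). Eef1b2 changed by 0.53 (adjusted p = 0.106) and 0.55 (adjusted p = 0.061). The latter passed in 5 of 15 alternatives (range 0.0402 to 0.256), among them without DEC205 array 1 (0.0402) and without DEC205 array 2 (0.0427). Of 5 methyltransferases of elongation factors, Eef1akmt1 and Eef1aknmt rose after anti-DCIR2-BDC, by 1.28 (adjusted p = 0.0149) and 0.95 (adjusted p = 0.0421). None passed after anti-DEC205-BDC by limma. There 3 of the 5 had an unadjusted p under 0.05 (20.7% of all genes), with Eef1akmt1 and Eef1akmt2 above PBS and Eef1akmt3 below. Eef1akmt1 lost its call without PBS array 1 (0.111), without either DCIR2 array (0.0678 and 0.126) and with every probe set tested (0.0962, range 0.0022 to 0.126). Eef1aknmt lost it in 6 alternatives (0.00426 to 0.281), among them without PBS array 2, where its change was 0.48 (adjusted p = 0.281), and without either DCIR2 array (0.153 and 0.205). Without PBS array 1 its change was 1.43. Eef1akmt1 passed after anti-DEC205-BDC without DEC205 array 1 (0.0482, range 0.0482 to 0.722), and Eef1akmt2 after anti-DCIR2-BDC with the replicate block (0.0413, range 0.0413 to 0.445). Eef1akmt2 changed by 0.47 and 0.56, Eef2kmt by -0.01 and 0.09, and Eef1akmt3 by -0.30 and -0.19, none passing. Eif4a3l1, an Eif4a3-like gene of low level, changed by 0.25 and 0.05.

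Set against each other, the antibodies gave 0 members past the threshold by limma, and 4 of all genes (0.0201%). At an unadjusted p under 0.05 there were 22 members (38.6%), where 10.2% of all genes reached it. The difference was above 0 in 49 of 57 members (47.9% of all genes), with a median of 0.34, and both DCIR2 arrays lay above both DEC205 arrays in 38 members (66.7%, beside 19.3% of all genes) and below them in 2 (20.9%). Eif4a3 differed by 0.79 (95% interval 0.39 to 1.18, adjusted p = 0.206), Eif4e by 0.65 (0.23 to 1.08, adjusted p = 0.294), Eif2b3 by 0.60 (0.14 to 1.06, adjusted p = 0.376) and Eif3c by 0.52 (0.18 to 0.85, adjusted p = 0.294). The interval excluded a 2-fold difference in 48 of 57 members, and its median half-width was 0.40. Against PBS, 24 members rose in both comparisons and 10 passed as higher after anti-DCIR2-BDC alone. For those 10 genes the difference between the antibodies did not pass, so they are not shown to respond to one antibody and not the other. Of the 11 T cell markers 0 passed between the antibodies by limma (7 at an unadjusted p under 0.05, smallest adjusted p 0.154). Their median difference was -0.38, with 7 of 11 lower on both DCIR2 arrays, and their part in the result was not tested.

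**Figure D4:**
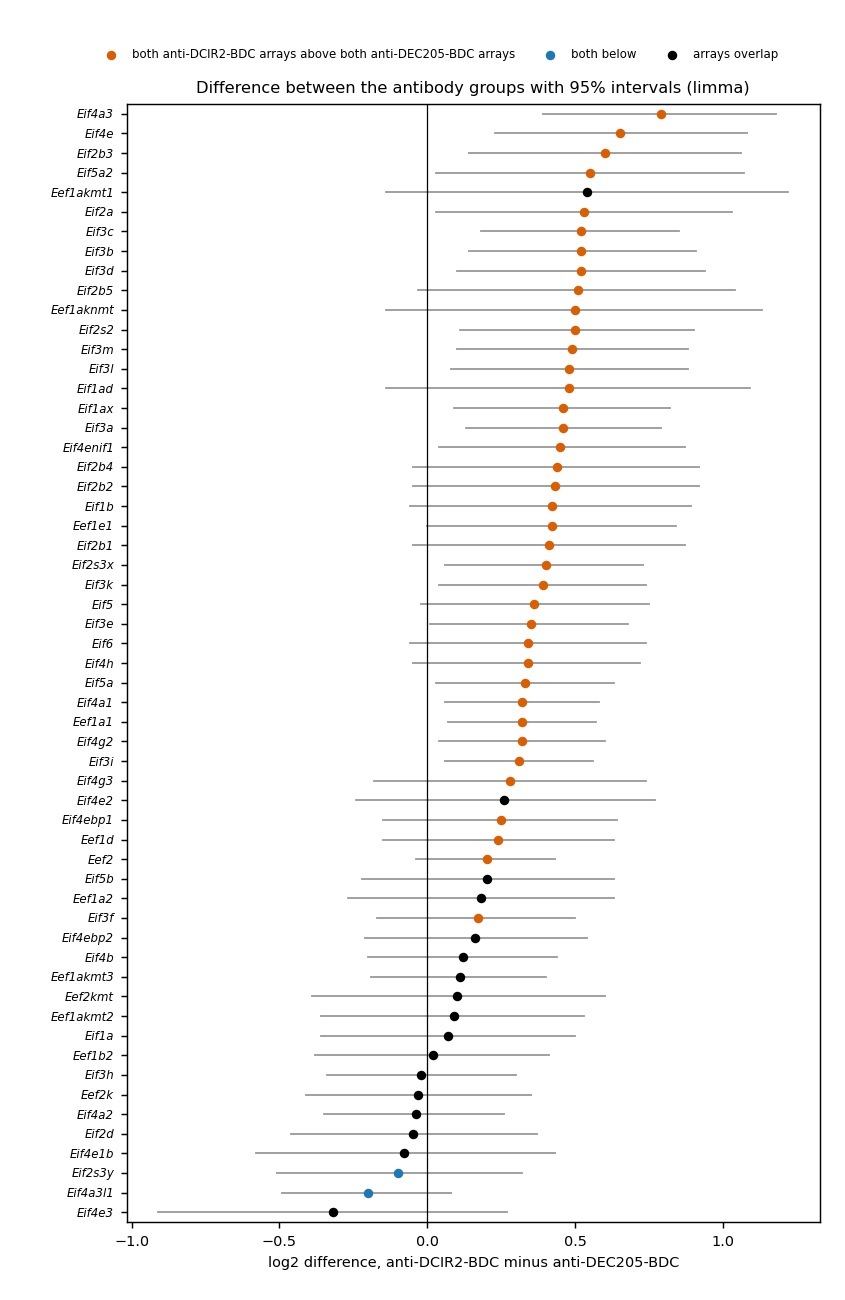
Log2 difference, anti-DCIR2-BDC minus anti-DEC205-BDC, of the 57 genes with 95% intervals from limma, coloured by whether the arrays overlap. Differences are above 0 in 49 genes and largest for Eif4a3 (0.79), and none passed the adjusted threshold (smallest adjusted p 0.206).

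Other genes of the translation pathway were counted from lists by function. Of 49 measured, 10 rose and 0 fell after anti-DEC205-BDC (8.84% of all genes passed), and 16 rose and 1 fell after anti-DCIR2-BDC (17.9%), with medians of 0.17 and 0.36. Termination, recycling and reinitiation factors had 4 of 9 rising in both. Among them Etf1, the release factor that reads stop codons, rose by 1.24 (adjusted p = 0.00152) and 1.80 (adjusted p = 6.59e-05), its GTPase partner Gspt1 by 1.18 (adjusted p = 0.0036) and 1.67 (adjusted p = 0.000187), and the reinitiation factor Denr by 1.08 (adjusted p = 0.015) and 1.53 (adjusted p = 0.00101). Of 8 poly(A)-binding proteins and partners 3 rose after anti-DEC205-BDC, and 5 rose and 1 fell after anti-DCIR2-BDC. Larp4 rose by 1.45 (adjusted p = 0.000939) and 1.70 (adjusted p = 0.00011) and Larp1, which binds pyrimidine-tract messages, by 1.16 (adjusted p = 0.0122) and 1.74 (adjusted p = 0.000524). Paip2, an inhibitor of poly(A)-binding protein, read 9.46 and 9.41 with PBS, 9.09 and 8.78 after anti-DEC205-BDC, and 7.82 and 7.99 after anti-DCIR2-BDC. It was the gene that fell, with -0.51 (adjusted p = 0.135) and -1.53 (adjusted p = 0.000294). Denr lost its first call without PBS array 1 (0.074), without DEC205 array 2 (0.107) and with every probe set tested (0.0929, range 0.00746 to 0.107). Larp1 lost its first call without DEC205 array 2 (0.0614) and with every probe set tested (0.0963, range 0.00304 to 0.0963).

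Mitochondrial translation factors had 3 of 10 rising after anti-DEC205-BDC and 4 after anti-DCIR2-BDC, beside 5.32% and 10.1% of all genes. No list was tested against these shares. The recycling factor Mrrf rose by 0.85 (adjusted p = 0.0271) and 1.89 (adjusted p = 0.000168), the elongation factor Gfm1 by 0.76 (adjusted p = 0.0389) and 1.48 (adjusted p = 0.000533), and Tufm by 0.85 (adjusted p = 0.0195) and 1.43 (adjusted p = 0.000514). All 3 calls after anti-DEC205-BDC were lost in some alternatives, Mrrf in 5 (0.0144 to 0.161), Gfm1 in 8 (0.0229 to 0.2) and Tufm in 3 (0.0118 to 0.128), and all 3 with every probe set tested. Leaving out 1 array cost Mrrf its call for PBS array 1 (0.161), DEC205 array 2 (0.152) and either DCIR2 array (0.0516 and 0.0514), Tufm for PBS array 2 (0.0961) and DEC205 array 2 (0.128), and Gfm1 for each of the 6 arrays (0.0614 to 0.2). Of 8 hypusine and diphthamide enzymes, which modify eIF5A and eEF2, 0 and 2 rose (all genes 5.32% and 10.1%). Dohh, the hydroxylase that finishes hypusine, rose by 0.86 (adjusted p = 0.0071) and Dph6, of diphthamide synthesis, by 0.85 (adjusted p = 0.0406) after anti-DCIR2-BDC. The call of Dohh was lost without DCIR2 array 1 (0.0693, range 0.00449 to 0.0693) and that of Dph6 without PBS array 1 (0.266) and either DCIR2 array (0.104 and 0.246), with quantile normalization (0.088) and with every probe set tested (0.139, range 0.0087 to 0.266). Of 6 selenocysteine factors 0 and 1 rose (all genes 5.32% and 10.1%). Sephs2 rose by 0.93 (adjusted p = 0.00966) after anti-DCIR2-BDC. Its call was lost without PBS array 2 (change 0.86) and without DCIR2 array 2 (change 0.7). None of 8 kinases and phosphatase subunits that act on eIF2 and eIF4E passed by limma, with smallest adjusted p of 0.0773 and 0.122. An unadjusted p under 0.05 was reached by 2 and 3 of the 8, near the shares of all genes (20.7% and 28.1%).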

How the data were processed

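RNA of sorted T cells from 3 groups of 2 arrays was amplified with a NuGen Ovation kit and hybridised to Affymetrix arrays, per the labels' protocols. The authors deposited 1 log2 value per probe set and array, which per the submitters' processing notes came from RMA run in Partek. Its version and options are not given in the sources used. RMA makes the arrays' distributions alike, which hides any shift common to every gene. Of 35556 probe sets, 21789 named 1 gene symbol in the platform annotation, 1621 several and 12146 none. The single-symbol probe sets gave 19938 genes, and Entrez identifiers matched all 57 members to RefSeq genes. All other probe sets stayed out of the gene comparisons.

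The 3 groups were fitted together in limma 3.58.1 (R 4.3.3) with a variance trend, two-sided tests and adjustment by Benjamini-Hochberg across the 19938 genes. The procedure was tested on simulated data. The number of arrays limits the precision, with a median 95% interval of 0.388 to either side of a log2 change. No block for the replicate number was fitted, as the labels tie no number to a mouse or day. The alternatives were quantile normalization, median centring, every probe set tested, the mean of a gene's probe sets, leaving out the dimmest 30% of genes, no variance trend, array weights, only the 4 arrays compared, the block, and leaving out each array in turn. Where 1 array was left, its group was assumed to vary like the others.

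The members and the lists of roles, related genes and markers were chosen with earlier results of these data known. Genes named with values were members that passed with arrays not overlapping (up to the 12 largest rises and falls per comparison), all sets of paralogues and regulators of a list, whatever their values, and up to 3 passing genes of each related list. Other members are named to account for all 57. Identical values in arrays of a group numbered at most 18.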

Additional observations from a re-analysis of the deposited data

Results flagged for a closer look

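Signals of translation factors also appeared on probe sets shared by several genes, which the comparisons of single genes leave out. Unless said otherwise, these are log2 changes against PBS that passed limma's adjusted threshold when every probe set was tested. None can be assigned to 1 gene. Probe set 10458680, shared by Eif3j1 and Eif3j2, which encode the loosely bound J subunit of eIF3, changed by 1.13 after anti-DEC205-BDC and 1.56 after anti-DCIR2-BDC. Probe set 10475405, shared by the same genes, changed by 1.4 after anti-DCIR2-BDC. Probe sets 10539177 and 10541067, shared by Eif4a3 and Eif4a3l1, changed by 1.51 and 1.5 after anti-DCIR2-BDC. Eif1a shares 4 probe sets with 7 other genes. Of these, 10401822 did not pass (0.75 and 0.6), 10397541 changed by 1.15 after anti-DEC205-BDC and 1.31 after anti-DCIR2-BDC, and 10397543 and 10401829 changed by 1.42 and 1.38 after anti-DCIR2-BDC. Other shared probe sets lay lower in both comparisons and did not pass. They were 10398693 with Eif5 (-0.51 and -1.13), 10448182 with Eef1a1 (-0.43 and -0.54) and 10454944 with Eif4ebp3 (-0.19 and -0.26).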

How the results depend on the processing

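After anti-DEC205-BDC the count of 24 members fell to 11 with every probe set tested and ran from 13 to 22 when 1 array was left out, with 15 without PBS array 1 and 13 without DEC205 array 2. Of the 24 genes, 10 passed in every alternative run: Eef1e1, Eif2b3, Eif2s2, Eif2s3x, Eif3b, Eif3c, Eif3d, Eif3i, Eif4a1 and Eif5a. After anti-DCIR2-BDC the count of 35 ran from 25 to 36 when 1 array was left out and from 29 to 37 in the other alternatives, and 25 of the 35 genes passed in all of them. The count between the antibodies was 0 in each alternative. Of the related genes 10 passed after anti-DEC205-BDC, 4 with every probe set tested and 4 to 8 when 1 array was left out (4 without DEC205 array 2). After anti-DCIR2-BDC 17 passed, and 12 to 17 when 1 array was left out. No called change of a member reversed its sign.

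With the replicate number as a block, 26, 37 and 0 members passed, and 11, 19 and 0 related genes. Same-numbered arrays deviated together only weakly (correlations 0.145, 0.131 and 0.071), and whether the numbers mark a shared day or batch was not tested. With every probe set tested, the adjustment runs over 35556 tests and the variance fit differs, and the cause of the lost calls was not tested. That setting still read each member from its chosen probe set. After anti-DEC205-BDC the other probe sets of Eif2s2 and Eif5a did not pass by limma (adjusted p over all probe sets 0.114 and 0.0594). The 2 others of Eif4a1 did (0.0382 and 0.0266). After anti-DEC205-BDC 3 members not passing otherwise passed in at least 1 alternative, and after anti-DCIR2-BDC 6. Median centring moved the median of all genes from -0.025 to 0.027 after anti-DEC205-BDC and from -0.049 to 0.025 after anti-DCIR2-BDC. Precision is limited by 2 arrays per group, and dim genes such as Eef1akmt3 lie near the low end of the scale.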
